A study of Homo sapiens with 32 samples.

Results

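The 10 genes described here make, use or regulate S-adenosylmethionine (SAM) and the polyamines. They were taken as a fixed list of symbols, MAT2A, MAT2B, METTL16, AHCY, AMD1, ODC1, AZIN1, OAZ1, OAZ2 and SAT1, and all 10 were found once each among the 60662 Ensembl gene IDs counted in each of 32 libraries. The libraries are poly(A)-selected, strand-specific RNA-seq of HEK293T, a line derived from human embryonic kidney cells, and all 10 genes passed the filter on low counts in every experiment. The study asked how mRNA levels depend on the RNA mark N6-methyladenosine (m6A), on the m6A reader YTHDF2 and on translation. STM2457 inhibits METTL3, the enzyme that places most m6A on mRNA, and was given at 20 µM in 0.2% DMSO, with 0.2% DMSO alone as its control. In the knockdown experiment the groups were STM2457 6 h + YTHDF2 siRNA, DMSO 6 h + YTHDF2 siRNA, STM2457 6 h and DMSO 6 h, with 3 libraries each. The siRNA was used at 20 nM, 24 h after seeding, and STM2457 or DMSO was added 42 h after transfection for the last 6 h before harvest at 48 h. Cells that got no YTHDF2 siRNA carry the label WT, with no word on a control siRNA for them, so transfection and loss of YTHDF2 cannot be told apart. In the 9 h experiment the groups were STM2457 9 h and DMSO 9 h, with 4 libraries each. In the emetine experiment the groups were STM2457 6 h + emetine 2 h, DMSO 6 h + emetine 2 h, STM2457 6 h + DMSO 2 h and DMSO 6 h + DMSO 2 h, with 3 libraries each. Emetine, which blocks translation elongation, was given at 1.8 µM for 2 h.

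SAM is the methyl donor of most methyltransferases, those of RNA included. MAT2A makes it from methionine and ATP, MAT2B binds MAT2A and modulates its activity, and AHCY removes S-adenosylhomocysteine, the product of each methyl transfer. METTL16 is a second m6A methyltransferase that methylates U6 snRNA and hairpins in the 3′ UTR of MAT2A mRNA. When SAM is low, METTL16 stays bound to these hairpins and promotes removal of the retained last intron of MAT2A. AMD1 decarboxylates SAM and so commits it to polyamine synthesis, while ODC1 makes putrescine, the first polyamine. The antizymes OAZ1 and OAZ2 bind ODC1 and direct it to the proteasome, AZIN1 binds antizyme and so spares ODC1, and SAT1 acetylates spermidine and spermine for export or breakdown.

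Part of this control is written in the transcripts themselves. The sequences below were read from the GENCODE 29 transcripts (GRCh38). The hairpin motif of METTL16 was searched as TACAGAGAA or TACAGAAAA on the sense strand of the 3′ UTR, and MAT2A held 6 copies, 5 of the first form and 1 of the second, with no overlap between copies. They are shown because METTL16 and MAT2A are measured side by side here. Capitals mark the 9-base motif and lower case the 10 flanking bases on each side.
MAT2A site 1, chr2:85543802-85543830, plus strand, 3′ UTR: tggcgtaggcTACAGAGAAgccttcaagc
MAT2A site 2, chr2:85544589-85544617, plus strand, 3′ UTR: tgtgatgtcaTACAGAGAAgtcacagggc
MAT2A site 3, chr2:85544774-85544802, plus strand, 3′ UTR: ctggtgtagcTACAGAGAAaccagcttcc
MAT2A site 4, chr2:85544889-85544917, plus strand, 3′ UTR: atggcgtaagTACAGAGAAgccatcacct
MAT2A site 5, chr2:85545004-85545032, plus strand, 3′ UTR: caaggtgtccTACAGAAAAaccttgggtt
MAT2A site 6, chr2:85545112-85545140, plus strand, 3′ UTR: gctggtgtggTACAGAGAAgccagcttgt
Of the 3′ UTRs of 13425 tested protein coding genes, 559 (4.16%) held 1 or more copies of either form, and MAT2A was the only one with 5 or more. The antizymes share a different control site, at which ribosomes shift by 1 base to read the full protein, a shift that polyamines promote. It is shown because both antizymes are measured here and carry it. Capitals mark the 7 bases of the shift site.
OAZ1 frameshift site, chr19:2271419-2271470, plus strand, coding: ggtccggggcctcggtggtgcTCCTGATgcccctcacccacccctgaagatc
OAZ2 frameshift site, chr15:64691488-64691539, minus strand, coding: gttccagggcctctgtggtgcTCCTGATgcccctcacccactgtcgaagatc
Over these 52 bases the antizyme sequences were identical at 45 positions, all 7 of the capitals among them. In both genes the annotated coding sequence leaves out 1 base, the fourth of the capitals.

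The genes lie on different chromosomes except for MAT2A and ODC1. In GENCODE 29 (GRCh38), MAT2A is at chr2:85539165-85545280 on the plus strand, MAT2B at chr5:163503114-163519336 (plus), METTL16 at chr17:2405562-2511891 (minus), AHCY at chr20:34280268-34311802 (minus) and AMD1 at chr6:110874770-110895713 (plus). ODC1 is at chr2:10439968-10448504 (minus), AZIN1 at chr8:102826357-102893864 (minus), OAZ1 at chr19:2269509-2273490 (plus), OAZ2 at chr15:64687573-64703281 (minus) and SAT1 at chrX:23783173-23786226 (plus). Reads of genes with overlapping exons are uncertain, because no source used here gives the strand setting of the counting. This concerns MAT2A above all, whose exons overlap those of GGCX, a vitamin K-dependent carboxylase gene on the opposite strand with 17.8 to 45.4% of the counts of MAT2A. The other genes with overlapping exons, JSRP1 for OAZ1 and unnamed or antisense genes for OAZ1, OAZ2, AZIN1 and AHCY, had at most 0.513% of their partner's counts, and the pseudogenes of MAT2A, AHCY, AMD1 and OAZ1 had at most 4 counts in any library.

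Total gene counts were 37694945 to 42303951 per library in the knockdown experiment, 22510323 to 34677704 in the 9 h experiment and 21781514 to 28053353 in the emetine experiment. YTHDF2 averaged 43.3 ± 1.14 CPM in DMSO 6 h + YTHDF2 siRNA and 178 ± 3.91 CPM in DMSO 6 h (SD, n = 3 each), and it averaged 618 ± 36.8 CPM in STM2457 6 h (n = 3). CPM, the usual depth-scaled count, was computed after TMM normalization. METTL3 mRNA, whose protein is the target of the inhibitor, averaged 75.6 ± 2.30 CPM in STM2457 6 h and 68.9 ± 0.292 CPM in DMSO 6 h (SD, n = 3 each). All 5 listed HEK293 genes were at 1 CPM or more in each experiment, with summed levels of 749 to 1487 CPM, against at most 0.0758 CPM for keratins and at most 0.444 CPM for hepatocyte genes. The blood and fibroblast lists summed to 1.52 to 2.96 and 17.8 to 30.0 CPM. In STM2457 6 h, replicate 3 was the highest of its group for 7 of the 10 genes, and results that rest on it are also given without it. Replicate 3 of DMSO 6 h + DMSO 2 h was the highest of its group for 8. These are bulk libraries, so a change in cell make-up and a change in RNA per cell cannot be told apart. The labels name no separate cultures behind the replicates, so p-values measure the spread between these libraries, which may be technical.

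Levels between genes were compared only per length, as CPM per kb of the transcript with the longest coding sequence. In DMSO 6 h, OAZ1 was highest with 587 ± 8.29 CPM per kb, followed by AHCY with 154 ± 2.86, AMD1 with 143 ± 1.63, ODC1 with 93.0 ± 3.64 and MAT2A with 89.8 ± 4.12 (SD, n = 3). MAT2B had 50.3 ± 1.32, AZIN1 48.3 ± 0.668, OAZ2 41.8 ± 0.827, SAT1 20.7 ± 1.88 and METTL16 10.9 ± 0.276 CPM per kb. The libraries of neighbours in this order did not overlap, except for ODC1 with MAT2A and MAT2B with AZIN1. OAZ1 was first and SAT1 and METTL16 were last in all 3 DMSO control groups. ODC1 had 168 ± 3.60 CPM per kb in DMSO 9 h (SD, n = 4), where its libraries overlapped those of AHCY. Sorted by the length of all exons of a gene instead, AMD1 and ODC1, and MAT2B and AZIN1, changed places in DMSO 6 h.

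**Figure D1:**
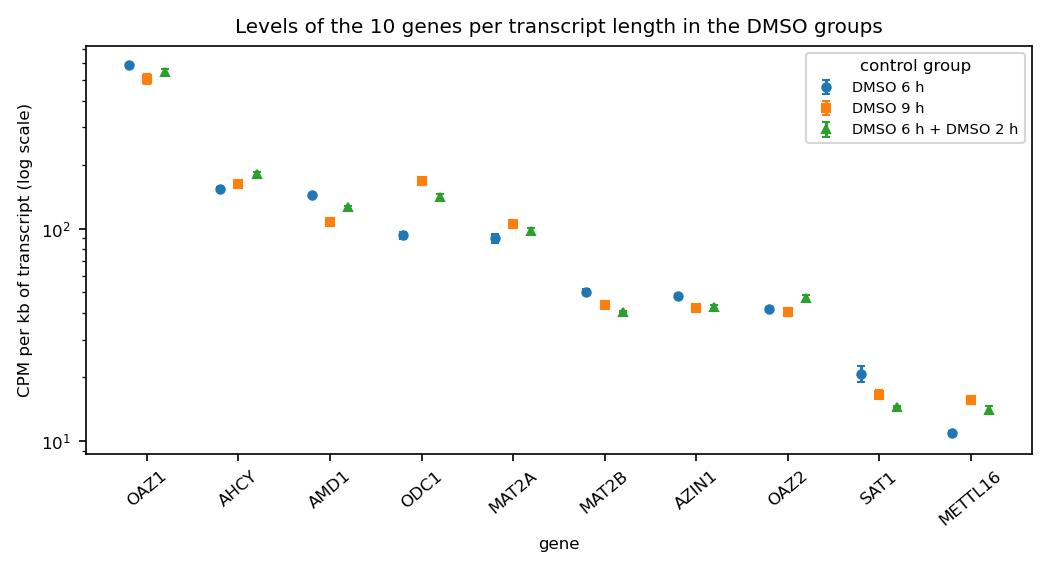
Mean level of each gene in CPM per kb of transcript (log scale) in the DMSO groups without siRNA or emetine of the 3 experiments, with SD over 3 or 4 libraries. OAZ1 lies at 508 CPM per kb or more in each group, while SAT1 and METTL16 lie lowest.

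STM2457 for 6 h raised AMD1 and METTL16 most in both experiments that tested it. In the knockdown experiment 4 of the 10 genes rose, AMD1, METTL16, AZIN1 and OAZ1, and none fell (edgeR adjusted p under 0.05), while 45.0% of all 16662 genes tested were called, 22.9% higher and 22.1% lower. The median log2 change of the 10 genes was 0.09, against -0.02 for all genes. In the emetine experiment, without emetine, 5 rose, those 4 and SAT1, and MAT2A and MAT2B fell, against a background of 47.8% of 15817 genes called, 26.0% higher and 21.9% lower. The medians were 0.10 for the 10 genes and 0.00 for all genes. After 9 h of STM2457, 9 of the 10 genes were called: METTL16, SAT1, AMD1, AZIN1 and MAT2A rose, and MAT2B, ODC1, AHCY and OAZ1 fell. The background was high here, with 64.7% of 15834 genes called, 32.2% higher and 32.5% lower, and the medians were 0.03 for the 10 genes and 0.00 for all genes.

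With YTHDF2 siRNA present, STM2457 raised AMD1, METTL16 and SAT1 and lowered none, with 30.9% of all genes called, 15.5% higher and 15.4% lower. AZIN1 at 0.18 was called as higher there by DESeq2, with RLE factors and with no low-count filter, and OAZ1 at 0.15 by DESeq2. With emetine present it raised AMD1, METTL16 and AZIN1 and lowered none, with 37.8% called, 21.6% higher and 16.2% lower. YTHDF2 siRNA itself raised SAT1, OAZ2, METTL16 and AMD1 and lowered MAT2A and MAT2B in DMSO, with 62.4% of all genes called, 33.1% higher and 29.3% lower. Under STM2457 the siRNA raised SAT1 and OAZ2 and lowered AMD1, AZIN1, MAT2A and METTL16, with 59.9% called, 29.8% higher and 30.1% lower. Emetine in DMSO changed all 10 genes, 4 higher and 6 lower, with 62.2% called, 33.9% higher and 28.3% lower. Under STM2457 emetine lowered 7 and raised none, with 59.8% called, 30.4% higher and 29.4% lower. At an unadjusted p under 0.05, the counts of 0 lower with siRNA present, with emetine present and at 6 h in the knockdown experiment stayed 0, as did that of 0 higher for emetine under STM2457.

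All these changes are relative to the bulk of transcripts, as TMM sets them. Scaling to 86 cytosolic ribosomal protein genes shifted the median log2 change of all genes by -0.26 for STM2457 at 6 h in the knockdown experiment, by -0.17 in the emetine experiment and by 0.17 at 9 h. Scaling to the ERCC spike-in RNAs, which 24 libraries carried, shifted it by -0.37 in the knockdown experiment and by -0.13 in the emetine experiment. For emetine in DMSO the shifts were 0.44 and 0.49, and under STM2457 they were 0.50 and 0.53. Under ribosomal protein scaling, 1252 genes were higher and 7363 lower for STM2457 in the knockdown experiment, against 3814 and 3677 under TMM. The ERCC share of counts was 0.328 to 0.463% in STM2457 6 h and 0.327 to 0.472% in STM2457 6 h + YTHDF2 siRNA. It was 0.301 to 0.365% in DMSO 6 h. In the emetine experiment it was 0.575 to 0.585% in STM2457 6 h + DMSO 2 h and 0.529 to 0.592% in DMSO 6 h + DMSO 2 h. It was 0.400 to 0.470% in DMSO 6 h + emetine 2 h and 0.432 to 0.454% in STM2457 6 h + emetine 2 h. These emetine libraries did not overlap those of the same experiment without emetine. ERCC scaling carries this gap, and also the spread between replicates, into its values and calls. A direction that turns under these scalings is named as such below.

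**Figure D2:**
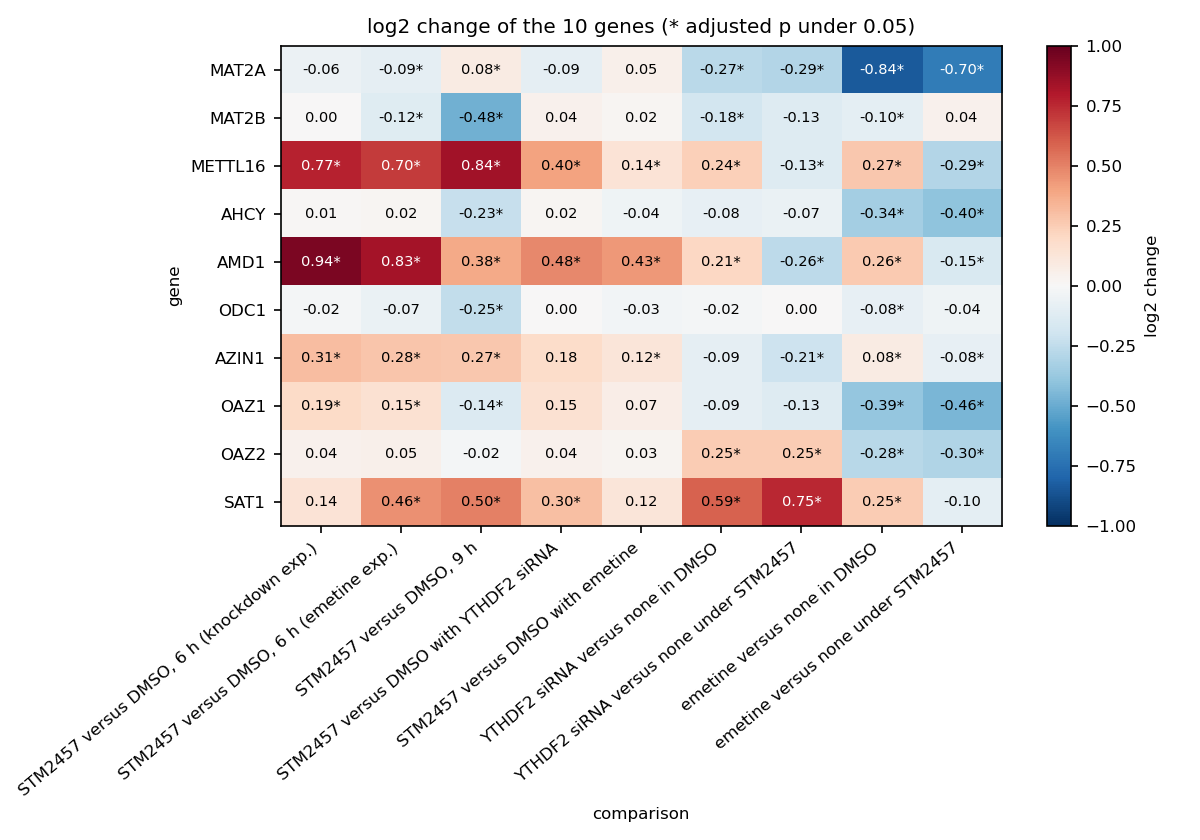
Log2 change of each gene (rows) in 9 comparisons (columns), by colour and number, with an asterisk at an edgeR adjusted p under 0.05. AMD1 and METTL16 are the highest genes in the STM2457 columns except at 9 h, where SAT1 at 0.50 lies above AMD1 at 0.38. With emetine METTL16 is only at 0.14. SAT1 is highest in the siRNA columns, and MAT2A is lowest in the emetine columns.

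MAT2A, the SAM synthase, hardly moved with STM2457 under TMM and fell most of the 10 genes with emetine. It had 153, 159 and 148 CPM in DMSO 6 h + emetine 2 h, against 269, 272 and 283 CPM in DMSO 6 h + DMSO 2 h. Under STM2457 it had 158, 159 and 159.7 CPM with emetine and 258, 255 and 259.9 CPM without. No emetine library reached a library without emetine. The log2 changes were -0.84 ± 0.03 in DMSO (SE, edgeR adjusted p = 1.14e-20) and -0.70 ± 0.03 under STM2457 (edgeR adjusted p = 2.58e-18). MAT2A was the only one of the 6 genes called lower with emetine in DMSO that stayed lower in every scaling, at -0.40 under ribosomal protein and -0.36 under ERCC scaling. Under STM2457 it stayed lower at -0.19 and -0.16, but with ERCC scaling the call was lost (adjusted p = 0.0548). GGCX, the overlapping gene, fell by 0.23 with emetine in DMSO on the log2 scale (edgeR adjusted p = 1.81e-05), and its part in the MAT2A value was not tested.

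With STM2457 MAT2A moved little under TMM. It had 230.3, 253 and 244 CPM in STM2457 6 h and 259, 261 and 239.8 CPM in DMSO 6 h, which overlap, with a log2 change of -0.06 and a 95% interval of -0.17 to 0.05. Ribosomal protein scaling gave -0.32 with a call (adjusted p = 0.0067). In the emetine experiment it fell by 0.09 on the log2 scale (edgeR adjusted p = 0.0201), a call lost with no low-count filter (-0.09, adjusted p = 0.0645), and at 9 h it rose by 0.08 (edgeR adjusted p = 0.0265) although the groups overlap. At 9 h the call was lost without DMSO 9 h replicate 1 (0.07), DMSO 9 h replicate 3 (0.07) or STM2457 9 h replicate 2 (0.05). YTHDF2 siRNA lowered MAT2A to 208, 215 and 208 CPM in DMSO, and to 203, 191 and 199.7 CPM under STM2457, with log2 changes of -0.27 ± 0.05 and -0.29 ± 0.05 (SE). All siRNA libraries lay below all libraries without siRNA in both settings (edgeR adjusted p = 0.000158 in DMSO and 7.15e-05 under STM2457). ERCC scaling kept the direction and lost both calls, at -0.24 and -0.22, and ribosomal protein scaling lost that under STM2457, at -0.21 (adjusted p = 0.0536).

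MAT2B, the regulatory subunit, fell at 9 h of STM2457. It had 63.4, 65.2, 67.4 and 66.3 CPM in STM2457 9 h, against 92.1, 89.3, 91.98 and 91.9 CPM in DMSO 9 h, groups that lie well apart. The log2 change was -0.48 ± 0.03 (SE, edgeR adjusted p = 3.28e-12), and -0.31 with ribosomal protein scaling. At 6 h it had 99.97, 93.7 and 124 CPM in STM2457 6 h and 106, 108 and 103 CPM in DMSO 6 h, where replicate 3 of STM2457 6 h is the high value. The log2 change there was 0.00 with all libraries and -0.14 without that replicate (edgeR adjusted p = 0.0226). MAT2B fell in the emetine experiment by 0.12 on the log2 scale with STM2457 (edgeR adjusted p = 0.0101), and by 0.18 without STM2457 6 h + DMSO 2 h replicate 1. Its fall by 0.18 with YTHDF2 siRNA in DMSO (edgeR adjusted p = 0.0497) did not hold without DMSO 6 h replicate 1 (-0.20) or 2 (-0.19), or without DMSO 6 h + YTHDF2 siRNA replicate 2 (-0.17) or 3 (-0.21), where the adjusted p was 0.0549 to 0.102.

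METTL16 rose with STM2457 in all 5 settings under TMM. It had 102, 113 and 103 CPM in STM2457 6 h and 62.0, 63.8 and 60.7 CPM in DMSO 6 h. The emetine experiment gave 126, 136 and 129 CPM in STM2457 6 h + DMSO 2 h and 82.4, 80.7 and 76.4 CPM in DMSO 6 h + DMSO 2 h, and at 9 h it had 156, 166, 158 and 159 CPM with STM2457 and 87.9, 84.1, 92.7 and 91.6 CPM with DMSO. The lowest STM2457 library lay above the highest DMSO library each time. The log2 changes were 0.77 ± 0.05, 0.70 ± 0.04 and 0.84 ± 0.03 (SE; edgeR adjusted p = 6.76e-10, 4.87e-17 and 1.64e-16). With ERCC scaling the knockdown value was 0.42 and the call was lost (adjusted p = 0.0755), while the emetine experiment gave 0.57 with the call kept.

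AMD1, the SAM decarboxylase, showed the largest rise of the 10 genes with STM2457 at 6 h. It had 901, 814 and 1125 CPM in STM2457 6 h and 493, 498 and 487 CPM in DMSO 6 h. The emetine experiment gave 786, 751 and 775 CPM in STM2457 6 h + DMSO 2 h and 429.5, 427 and 440.4 CPM in DMSO 6 h + DMSO 2 h. The groups lie far apart in both, and replicate 3 of STM2457 6 h is the highest library of all. The log2 changes were 0.94 ± 0.08 (SE, edgeR adjusted p = 2.7e-08), a fold change of 1.92, and 0.83 ± 0.03 (edgeR adjusted p = 5.7e-21), a fold change of 1.78. Without replicate 3 of STM2457 6 h the first was 0.79. AMD1 stayed higher with STM2457 at 6 h, and called, in both other scalings, at 0.66 and 0.55 in the knockdown experiment and 0.66 and 0.70 in the emetine experiment. At 9 h the rise was smaller, with 457, 513, 478 and 470.1 CPM in STM2457 9 h and 370.3, 358, 368 and 383 CPM in DMSO 9 h, and a log2 change of 0.38 ± 0.03 (SE, edgeR adjusted p = 7.5e-10).

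**Figure D3:**
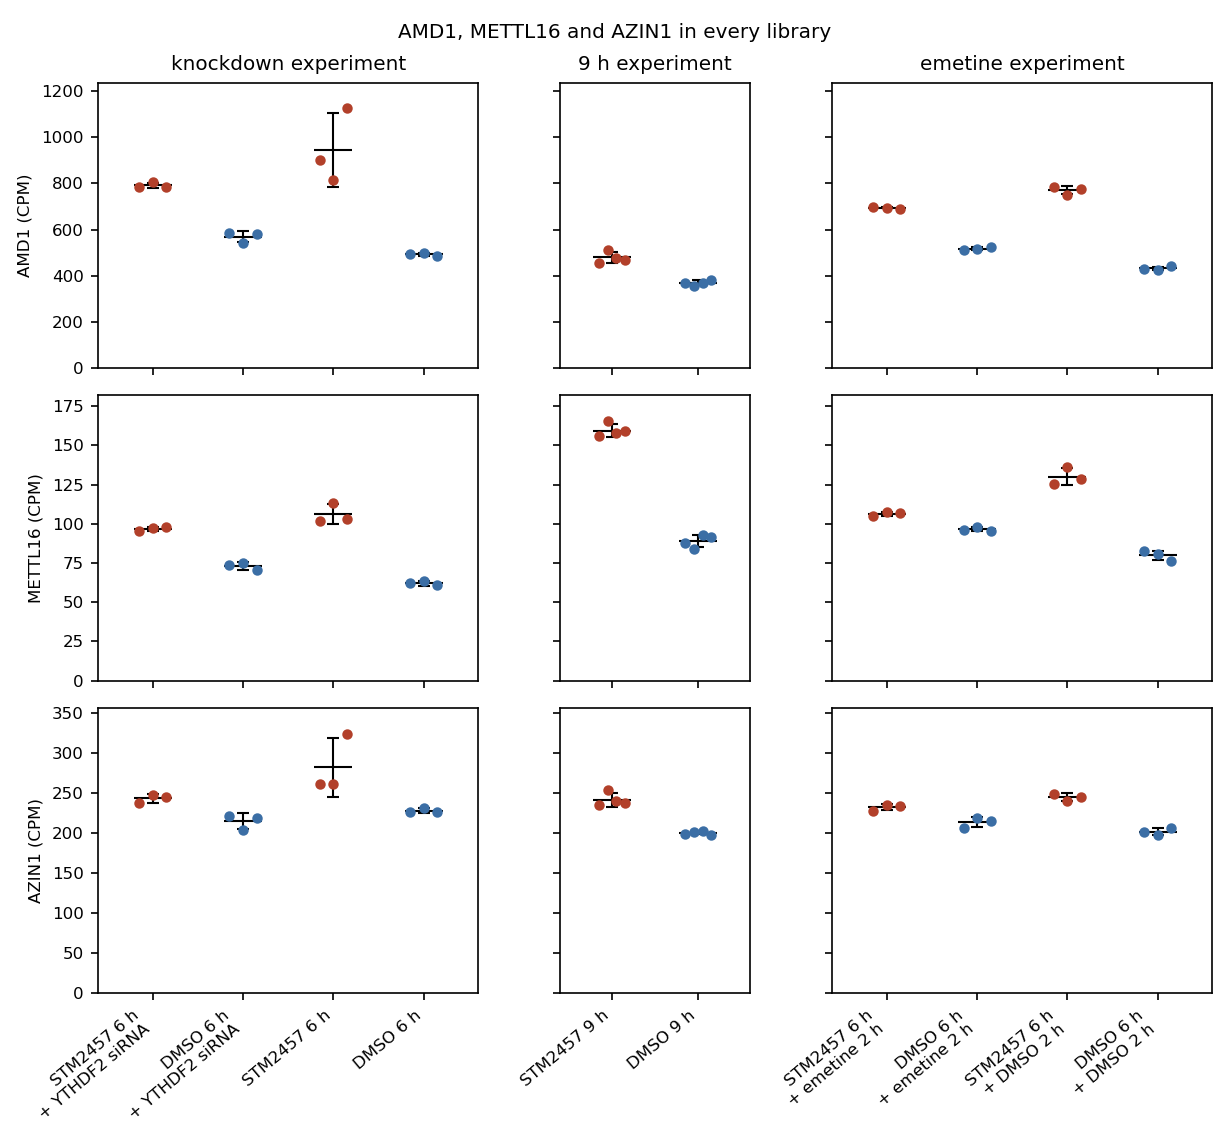
AMD1, METTL16 and AZIN1 in CPM in each library (points; red STM2457, blue DMSO) with mean and SD per group, in the 3 experiments. Each STM2457 group lies above its own DMSO group for all 3 genes, and for AMD1 and METTL16 the gap is smaller with siRNA or emetine.

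ODC1, the other rate-setting enzyme of polyamine synthesis, did not follow AMD1. It had 219, 239.7 and 270.0 CPM in STM2457 6 h and 252, 252 and 236 CPM in DMSO 6 h, which overlap, with a log2 change of -0.02 and a 95% interval of -0.16 to 0.12. Without STM2457 6 h replicate 3 the value was -0.12 and not called (edgeR adjusted p = 0.0934), and with ribosomal protein scaling it was -0.29 with a call (adjusted p = 0.00179). In the emetine experiment, whose groups also carry a DMSO 2 h step, it had 348, 358 and 364 CPM in STM2457 6 h + DMSO 2 h. It had 363, 376 and 383 CPM in DMSO 6 h + DMSO 2 h, and the groups overlap at 1 library of each. The log2 change of -0.07 was not called (edgeR adjusted p = 0.102), but it was called as lower by DESeq2 (-0.08) and under ribosomal protein and ERCC scaling (-0.24 and -0.20). It was also called without replicate 1 (-0.12) or 2 (-0.09) of DMSO 6 h + DMSO 2 h, or replicate 2 (-0.10) or 3 (-0.11) of STM2457 6 h + DMSO 2 h. At 9 h it fell, with 350.5, 380.0, 394 and 369 CPM in STM2457 9 h and 448, 456, 433 and 444 CPM in DMSO 9 h, groups that do not overlap. The log2 change was -0.25 ± 0.03 (SE, edgeR adjusted p = 3.57e-07), and -0.08 with ribosomal protein scaling. YTHDF2 siRNA left ODC1 uncalled in DMSO and under STM2457, with 95% intervals of the log2 change of -0.16 to 0.12 and -0.14 to 0.14. With emetine in DMSO it fell by 0.08 on the log2 scale (edgeR adjusted p = 0.0477). That call was lost with no low-count filter (-0.07) and without DMSO 6 h + emetine 2 h replicate 1 (-0.06) or 3 (-0.09), and without DMSO 6 h + DMSO 2 h replicate 1 the value was -0.13. The direction turned to 0.36 and 0.41 under ribosomal protein and ERCC scaling.

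The ODC1 regulators moved differently from each other. AZIN1, the antizyme inhibitor, had 261, 261 and 324 CPM in STM2457 6 h and 226, 232 and 226 CPM in DMSO 6 h. It had 249, 240.2 and 246 CPM in STM2457 6 h + DMSO 2 h and 201, 198 and 206 CPM in DMSO 6 h + DMSO 2 h. It had 235, 254, 241 and 237 CPM in STM2457 9 h and 199, 202, 202 and 198 CPM in DMSO 9 h. No STM2457 library overlapped DMSO, with log2 changes of 0.31 ± 0.07, 0.28 ± 0.03 and 0.27 ± 0.03 (SE; edgeR adjusted p = 0.00129, 1.03e-08 and 2.16e-08). The first value was 0.18 without replicate 3 of STM2457 6 h, and it turned to -0.08 under ERCC scaling (adjusted p = 0.755). OAZ1 rose by 0.19 ± 0.06 at 6 h in the knockdown experiment (SE, edgeR adjusted p = 0.0129) and by 0.15 ± 0.03 in the emetine experiment (edgeR adjusted p = 0.000458), and fell by 0.14 ± 0.04 at 9 h (edgeR adjusted p = 0.00119), on the log2 scale. These directions turned with ribosomal protein scaling, to -0.08, -0.02 and 0.03, and to -0.19 in the knockdown experiment with ERCC scaling. Without STM2457 6 h replicate 3 (0.12) or DMSO 6 h replicate 3 (0.17) the knockdown call of OAZ1 was lost, and without DMSO 6 h + DMSO 2 h replicate 2 the emetine experiment gave 0.09.

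OAZ2 did not pass the test for STM2457 in any of its 5 settings, with log2 changes of -0.02 to 0.05 under TMM. Ribosomal protein scaling gave called values in both directions, -0.23 at 6 h in the knockdown experiment and 0.15 at 9 h. With YTHDF2 siRNA OAZ2 had 98.2, 95.1 and 96.3 CPM in DMSO 6 h + YTHDF2 siRNA and 79.3, 80.9 and 82.5 CPM in DMSO 6 h, with no overlap. Its log2 change was 0.25 ± 0.06 (SE, edgeR adjusted p = 0.000663), and under STM2457 it was also 0.25 ± 0.06 (edgeR adjusted p = 0.000746), each with ERCC scaling no longer called, at 0.28 and 0.34. OAZ1 had 630.5, 604 and 660.4 CPM in DMSO 6 h + YTHDF2 siRNA and 680.0, 678 and 663 CPM in DMSO 6 h, without overlap but with a log2 change of -0.09 that did not pass the test (edgeR adjusted p = 0.184). Under STM2457 the siRNA gave OAZ1 -0.13, also not called. It was called as lower there by DESeq2 (-0.13), with no low-count filter (-0.14) and without STM2457 6 h replicate 2 (-0.21). Without STM2457 6 h replicate 3 it was -0.08 and not called. The difference between the antizymes in their response was not tested. Under emetine in DMSO both fell, by 0.39 for OAZ1 (edgeR adjusted p = 7.26e-12) and 0.28 for OAZ2 (edgeR adjusted p = 2.13e-07) on the log2 scale, and both turned under the other scalings, to 0.05 and 0.16 with ribosomal protein genes and 0.10 and 0.21 with ERCC.

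SAT1, the polyamine acetyltransferase, rose most of the 10 genes with YTHDF2 siRNA. It had 33.7, 33.4 and 32.5 CPM in DMSO 6 h + YTHDF2 siRNA and 20.9, 20.99 and 24.4 CPM in DMSO 6 h. Under STM2457 it had 41.0, 39.3 and 42.5 CPM with siRNA and 25.7, 22.4 and 24.8 CPM without. The siRNA libraries lay above all others in both settings. The log2 changes were 0.59 ± 0.07 (SE, edgeR adjusted p = 4.19e-07) and 0.75 ± 0.07 (edgeR adjusted p = 1.77e-08), and both stayed called with ERCC scaling, at 0.61 and 0.85. STM2457 raised SAT1 by 0.46 ± 0.07 in the emetine experiment (SE, edgeR adjusted p = 3.89e-07) and by 0.50 ± 0.06 at 9 h (edgeR adjusted p = 3.92e-08), on the log2 scale. In the knockdown experiment without siRNA the value was 0.14 and not called (edgeR adjusted p = 0.114). It was called without DMSO 6 h replicate 3 (0.20) or STM2457 6 h replicate 2 (0.18). AHCY, which clears the product of methyl transfer, was not called with STM2457 at 6 h, with log2 changes of 0.01 and 0.02 that turned to -0.26 and -0.15 with ribosomal protein scaling. At 9 h it had 289, 298, 307 and 294 CPM in STM2457 9 h and 361, 359, 338 and 335 CPM in DMSO 9 h, without overlap, a log2 change of -0.23 ± 0.03 (SE, edgeR adjusted p = 8.25e-07). Ribosomal protein scaling gave -0.06 there and ended the call (adjusted p = 0.167).

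**Figure D4:**
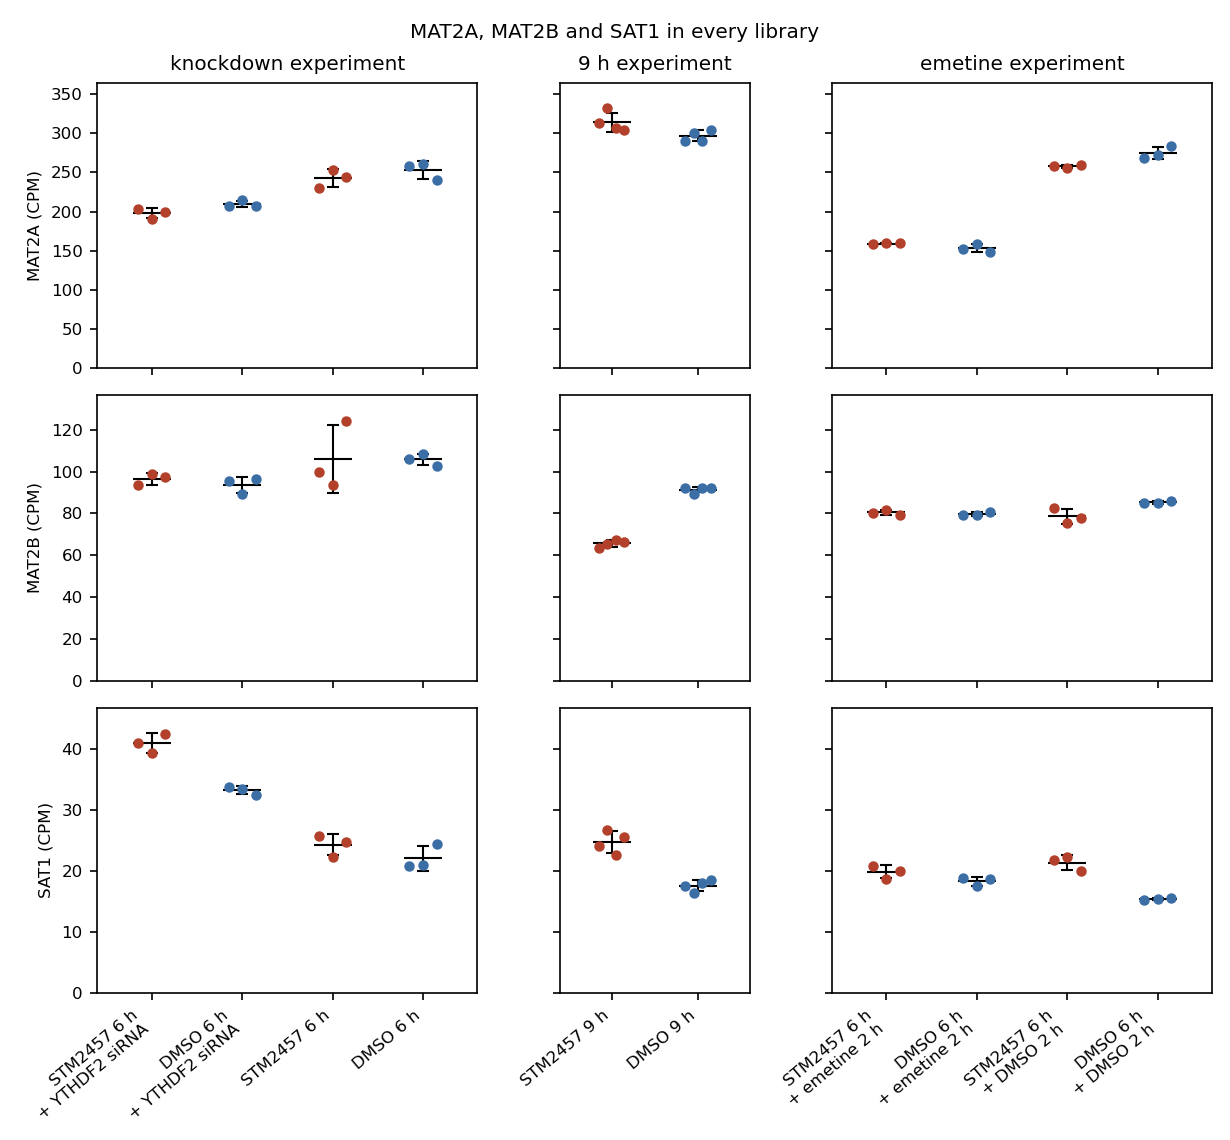
MAT2A, MAT2B and SAT1 in CPM in each library (points; red STM2457, blue DMSO) with mean and SD per group, in the 3 experiments. MAT2A lies between 148 and 159.7 CPM in all 6 emetine libraries, MAT2B is at 67.4 CPM or less only in the STM2457 9 h group, and SAT1 is at 32.5 CPM or more only with YTHDF2 siRNA.

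The effect of STM2457 was smaller with YTHDF2 siRNA than without for AMD1 and METTL16. With siRNA, AMD1 had 784, 806 and 786 CPM in STM2457 6 h + YTHDF2 siRNA and 586, 544 and 579 CPM in DMSO 6 h + YTHDF2 siRNA, without overlap and with a log2 change of 0.48 ± 0.08 (SE, edgeR adjusted p = 0.000169). METTL16 had 95.5, 97.2 and 97.98 CPM in STM2457 6 h + YTHDF2 siRNA and 73.9, 75.3 and 70.3 CPM in DMSO 6 h + YTHDF2 siRNA, also without overlap and with a log2 change of 0.40 ± 0.05 (edgeR adjusted p = 5.28e-06). Ribosomal protein and ERCC scaling gave 0.21 and 0.10 for METTL16, neither called, and 0.29 with a call and 0.17 without for AMD1. SAT1 rose by 0.30 with siRNA present (edgeR adjusted p = 0.00148), not called under ribosomal protein scaling at 0.11 and turned to -0.01 under ERCC scaling. The effect with siRNA minus the effect without was -0.47 ± 0.12 for AMD1 (SE, edgeR adjusted p = 0.0149) and -0.37 ± 0.07 for METTL16 (edgeR adjusted p = 0.00279), on the log2 scale. No other gene of the 10 was called for this difference, against 8.70% of all genes called, 1.78% higher and 6.93% lower. The AMD1 difference was -0.31 without STM2457 6 h replicate 3 (adjusted p = 0.00289). Its call was lost without DMSO 6 h replicate 3 (-0.45), DMSO 6 h + YTHDF2 siRNA replicate 1 (-0.43) or STM2457 6 h + YTHDF2 siRNA replicate 3 (-0.44), with adjusted p of 0.0507 to 0.0615. Ribosomal protein scaling kept the AMD1 call at -0.37 and lost that of METTL16 at -0.30, and with ERCC scaling neither was called, at -0.38 and -0.32.

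Read along the other axis, YTHDF2 siRNA raised AMD1 and METTL16 in DMSO and lowered them under STM2457. In DMSO the log2 changes were 0.21 ± 0.08 for AMD1 (SE, edgeR adjusted p = 0.033) and 0.24 ± 0.05 for METTL16 (edgeR adjusted p = 0.000609). Under STM2457 they were -0.26 ± 0.08 for AMD1 (SE, edgeR adjusted p = 0.0109) and -0.13 ± 0.05 for METTL16 (edgeR adjusted p = 0.0318), and AZIN1 fell by 0.21 ± 0.07 (edgeR adjusted p = 0.0118). The AMD1 call in DMSO was lost when any 1 of the 6 libraries was left out, with values of 0.16 to 0.21. Without STM2457 6 h replicate 3 the values under STM2457 were -0.13 for AMD1 and -0.11 for AZIN1, both still called. The METTL16 call there was lost with no low-count filter (-0.14), and without STM2457 6 h replicate 2 (-0.10) or STM2457 6 h + YTHDF2 siRNA replicate 1 (-0.13). With ERCC scaling none of these 5 values was called, and no direction turned. With ribosomal protein scaling only 1 of the 10 genes was called lower under STM2457, against 4 under TMM. At most 1 of the falls of AMD1, METTL16 and AZIN1 thus kept its call.

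**Figure D5:**
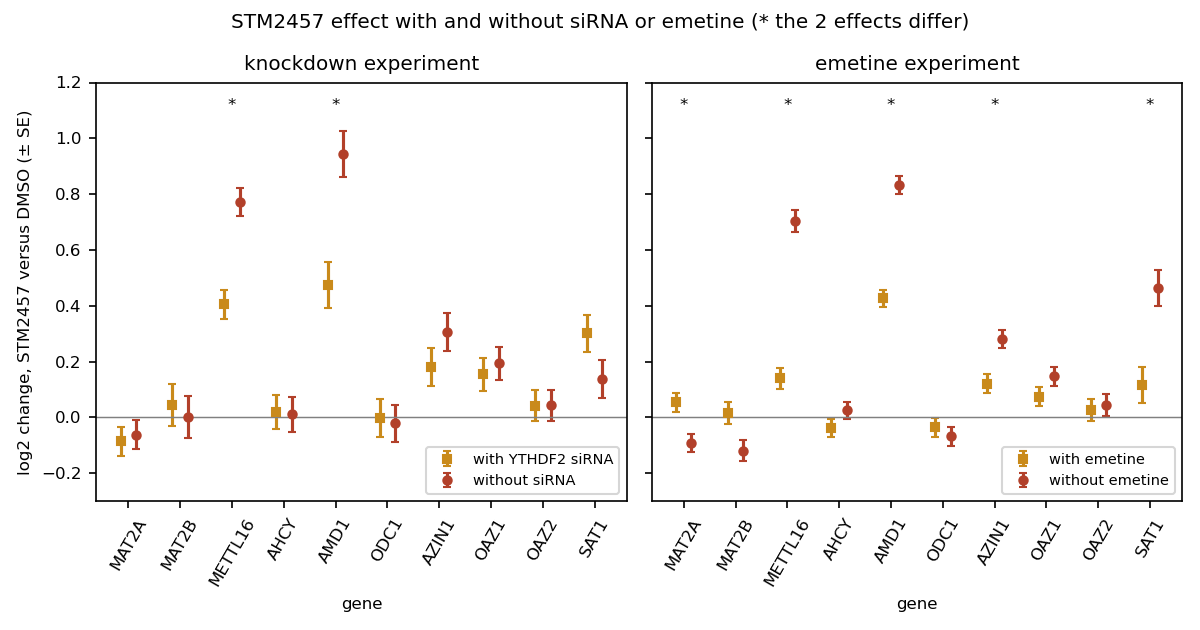
Log2 change with STM2457 against DMSO (± SE) for each gene, with siRNA or emetine (squares) and without (circles), in the knockdown and the emetine experiment. An asterisk marks an edgeR adjusted p under 0.05 for the difference, which AMD1 and METTL16 carry in both panels.

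Emetine also narrowed the STM2457 effect on these genes. With emetine, AMD1 had 696, 695 and 692 CPM in STM2457 6 h + emetine 2 h and 511, 516 and 523 CPM in DMSO 6 h + emetine 2 h, and METTL16 had 105, 108 and 107 CPM and 95.8, 98.2 and 95.6 CPM in the same groups. The STM2457 libraries still lay above the DMSO libraries for both genes, with log2 changes of 0.43 ± 0.03 (SE, edgeR adjusted p = 4.95e-13) and 0.14 ± 0.04 (edgeR adjusted p = 0.00321). In the other scalings AMD1 stayed called, at 0.32 and 0.34, and METTL16 did not, at 0.03 and 0.06. The effect with emetine minus the effect without was -0.56 ± 0.05 for METTL16 (SE, edgeR adjusted p = 1.4e-09) and -0.41 ± 0.05 for AMD1 (edgeR adjusted p = 2.65e-08). It was also called for SAT1 at -0.35 ± 0.09 (edgeR adjusted p = 0.00683), AZIN1 at -0.16 ± 0.05 (edgeR adjusted p = 0.0148) and MAT2A at 0.15 ± 0.05 (edgeR adjusted p = 0.0279). That makes 5 of the 10 genes, 1 higher and 4 lower, against 17.8% of all genes called, 6.71% higher and 11.1% lower. AMD1 and METTL16 kept these calls in both other scalings, at -0.34 and -0.50 with ribosomal protein genes and -0.36 and -0.51 with ERCC. SAT1 lost its call in both (-0.28 and -0.30), and so did AZIN1 (-0.09 and -0.11), while MAT2A kept it with ribosomal protein genes (0.21) and lost it with ERCC (0.20).

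Leaving out single libraries also ended the smaller of these differences. The AZIN1 call was lost without replicate 1 or 2 of DMSO 6 h + DMSO 2 h (-0.14 and -0.13), replicate 1 or 3 of STM2457 6 h + DMSO 2 h (-0.14 and -0.15) or replicate 2 of DMSO 6 h + emetine 2 h (-0.14). The MAT2A call was lost with no low-count filter (0.13, adjusted p = 0.105), and without replicate 1 or 3 of DMSO 6 h + emetine 2 h (0.14 and 0.12) or replicate 2 or 3 of STM2457 6 h + emetine 2 h (0.14 and 0.14). AMD1, METTL16 and SAT1 kept theirs without any 1 library, at -0.42 to -0.38, -0.58 to -0.52 and -0.38 to -0.30.

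Emetine alone raised METTL16, AMD1, SAT1 and AZIN1 in DMSO and lowered METTL16, AMD1 and AZIN1 under STM2457. In DMSO the log2 changes were 0.27 ± 0.04 for METTL16 (SE, edgeR adjusted p = 1.78e-07), 0.26 ± 0.03 for AMD1 (edgeR adjusted p = 1.56e-08), 0.25 ± 0.07 for SAT1 (edgeR adjusted p = 0.00152) and 0.08 ± 0.03 for AZIN1 (edgeR adjusted p = 0.0315). Under STM2457 they were -0.29 ± 0.04 for METTL16 (SE, edgeR adjusted p = 3.32e-08), -0.15 ± 0.03 for AMD1 (edgeR adjusted p = 0.000112) and -0.08 ± 0.03 for AZIN1 (edgeR adjusted p = 0.0437). The rises in DMSO grew under both other scalings, to 0.71 and 0.76 for METTL16, while the falls under STM2457 turned, to 0.21 and 0.24 for METTL16, 0.35 and 0.39 for AMD1 and 0.43 and 0.46 for AZIN1. The AZIN1 call in DMSO was lost with RLE factors and with DESeq2, at 0.07 in both (adjusted p = 0.0840 and 0.0729). The AZIN1 calls also depended on single libraries: in DMSO the call was lost without replicate 1 (0.05), 2 (0.04) or 3 (0.07) of DMSO 6 h + DMSO 2 h or replicate 2 (0.07) or 3 (0.08) of DMSO 6 h + emetine 2 h. Under STM2457 it was lost without replicate 1 (-0.06) or 3 (-0.08) of STM2457 6 h + emetine 2 h. AHCY fell by 0.34 in DMSO (edgeR adjusted p = 3.46e-11) and by 0.40 under STM2457 (edgeR adjusted p = 8.01e-13) on the log2 scale, and turned to 0.10 in both with ribosomal protein scaling. MAT2B fell by 0.10 in DMSO (edgeR adjusted p = 0.0241), a call lost with no low-count filter (-0.09) and without replicate 1 or 2 of DMSO 6 h + emetine 2 h (-0.09 each), and turned to 0.34 and 0.39 under the other scalings.

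The STM2457 effects at 9 h and 6 h came from different experiments, so time and experiment cannot be told apart. The effect at 9 h minus that at 6 h in the knockdown experiment was 0.38 ± 0.10 for SAT1 (SE, edgeR adjusted p = 0.00635) and -0.55 ± 0.10 for AMD1 (edgeR adjusted p = 0.000449), on the log2 scale. It was -0.46 ± 0.09 for MAT2B (SE, edgeR adjusted p = 0.00074), -0.32 ± 0.08 for OAZ1 (edgeR adjusted p = 0.00382) and -0.22 ± 0.08 for AHCY (edgeR adjusted p = 0.0307). These 5 of 10 genes compare with 34.0% of all 16749 genes called, 17.2% higher and 16.8% lower. ODC1 was at -0.21 and not called (edgeR adjusted p = 0.0505), but RLE factors, DESeq2 and no low-count filter called it as lower, at -0.26, -0.26 and -0.24, and ribosomal protein scaling as higher, at 0.21. Its call as lower was also reached without STM2457 6 h replicate 1 or 2, DMSO 9 h replicate 4 or any 1 of the STM2457 9 h libraries (-0.29 to -0.23), and the value was -0.13 without STM2457 6 h replicate 3. MAT2A was at 0.16 and not called (edgeR adjusted p = 0.0588), and was called without DMSO 6 h replicate 3 (0.20), STM2457 6 h replicate 2 (0.19) or STM2457 6 h replicate 3 (0.17). Ribosomal protein scaling shifted the median of all genes by 0.41 and kept SAT1 called as higher, at 0.79, while AMD1 and MAT2B stayed below 0 without a call, at -0.11 and -0.03, and OAZ1 and AHCY turned, to 0.11 and 0.20, AHCY with a call (adjusted p = 0.0279). Without STM2457 6 h replicate 3 the differences were -0.40 for AMD1, -0.33 for MAT2B and -0.14 for AHCY, whose call was then lost. The AHCY call was also lost without DMSO 6 h replicate 1 (-0.21), DMSO 9 h replicate 1 (-0.20) or DMSO 9 h replicate 2 (-0.21). In the emetine experiment the 6 h effects were 0.46 for SAT1, 0.83 for AMD1, -0.12 for MAT2B, 0.15 for OAZ1 and 0.02 for AHCY. At 9 h they were 0.50, 0.38, -0.48, -0.14 and -0.23. For SAT1 the 6 h effect was close to that at 9 h in the emetine experiment but not in the knockdown experiment (0.14). Differences of the 9 h effects from those of the emetine experiment were not tested.

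The wider pathways moved in both directions, in tests that were run on the lists with TMM normalization alone. Of 15 tested genes of polyamine synthesis, catabolism and transport outside the 10, 3 rose and 3 fell with STM2457 at 6 h in the knockdown experiment, where 22.9% of all genes were called higher and 22.1% lower. At 9 h 4 rose and 6 fell, against 32.2% and 32.5% of all genes, so both counts lie near the background. At 9 h ARG2, a mitochondrial arginase, fell by 0.92, SMS, the spermine synthase, fell by 0.42, SLC7A1, a transporter of cationic amino acids, rose by 0.54, and SMOX, the spermine oxidase, rose by 0.65 (log2; edgeR adjusted p = 2.6e-14, 3.29e-11, 3.36e-14 and 5.53e-10). The median of the list at 9 h was -0.01, against 0.00 for all genes. With YTHDF2 siRNA in DMSO 5 rose and 7 fell, against 33.1% and 29.3% of all genes, with ATP13A3, a polyamine transporter, lower by a log2 change of -0.99, and SMOX and ATP13A2, a lysosomal polyamine exporter, higher by 1.08 and 0.95. The median of the list there was -0.11, against 0.02 for all genes. Emetine in DMSO lowered 8 and raised 1, against 28.3% of all genes lower and 33.9% higher. SLC7A1 at -0.51 and SMS at -0.41 were among those that fell, with a list median of -0.22 against 0.04 for all genes.

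Of 4 genes that read or process the MAT2A 3′ UTR, YTHDC1, an m6A reader of the nucleus, rose with STM2457 by 0.60 at 6 h in the knockdown experiment, 0.66 in the emetine experiment and 0.40 at 9 h (log2; edgeR adjusted p = 2.05e-08, 1.28e-15 and 1.64e-11). With YTHDF2 siRNA in DMSO 2 of the 4 rose and 2 fell, against 33.1% and 29.3% of all genes. At 9 h of STM2457 the count was also 2 and 2, against 32.2% and 32.5%. NUDT21 and CPSF6, subunits of the cleavage factor that favours splicing of the MAT2A retained intron, had log2 changes of -1.49 and -0.83 with the siRNA in DMSO (edgeR adjusted p = 2.87e-14 and 1.8e-11), while CPSF7, another subunit, rose by 0.34 and YTHDC1 by 0.19 (edgeR adjusted p = 8.15e-05 and 0.00335). MAT2A fell by 0.27 in these libraries. The part of these genes in the MAT2A value was not tested. In the methionine cycle and transsulfuration list, 15 of 19 genes were tested in the knockdown experiment, and 2 rose and 4 fell with STM2457, against 22.9% and 22.1% of all genes, among them AHCYL1, a relative of AHCY, at -0.31. With YTHDF2 siRNA in DMSO 4 rose and 9 fell, against 33.1% and 29.3% of all genes, with CTH, which makes cysteine from cystathionine, at -1.08 and MTRR, the methionine synthase reductase, at -0.75, and the list median was -0.22 against 0.02 for all genes. SLC7A5, the light chain of the large neutral amino acid transporter that carries methionine, fell by 1.00 with emetine in DMSO while its heavy chain SLC3A2 rose by 0.61.

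The 5 genes of the methionine salvage list return the sulfur by-product of polyamine synthesis to methionine. With STM2457 at 6 h in the knockdown experiment 2 rose and none fell, MTAP at 0.24 and ENOPH1 at 0.18. Of all genes, 22.9% were higher and 22.1% lower there. The 6 h treatment in the emetine experiment gave 2 higher, MTAP at 0.13 and ENOPH1 at 0.09, and 2 lower, ADI1 at -0.18 and APIP at -0.19. The shares of all genes were 26.0% higher and 21.9% lower. At 9 h 1 rose and 3 fell, with ADI1 at -0.65, against 32.2% and 32.5% of all genes. With YTHDF2 siRNA in DMSO none rose and 3 fell, with ENOPH1 at -1.57, against 33.1% and 29.3% of all genes. Of 15 folate pathway genes, 5 rose and 3 fell with STM2457 in the knockdown experiment, with a median of 0.05 against -0.02 for all genes, and 4 rose and 7 fell at 9 h, with a median of -0.11 against 0.00. Taken in both directions together, these counts are near the shares of all genes called, 45.0% and 64.7%. By direction the shares were 22.9% higher and 22.1% lower in the knockdown experiment, and 32.2% and 32.5% at 9 h. At 9 h MTHFD1 had -0.55 and TYMS, the thymidylate synthase, -0.54. With siRNA in DMSO 3 rose and 6 fell, against 33.1% and 29.3% of all genes, MTHFD2, a mitochondrial folate enzyme, at -1.16. In the hypusine list of 4 genes, which use spermidine to modify the translation factor EIF5A, EIF5A itself was at -0.70 with siRNA in DMSO and at -0.34 at 9 h of STM2457. Of 13 other RNA methyltransferases and cofactors, 5 rose and 2 fell with STM2457 in the knockdown experiment, against 22.9% and 22.1% of all genes, and 6 rose and 2 fell in the emetine experiment, against 26.0% and 21.9%. CMTR2, which methylates the second nucleotide of mRNA caps, rose by 1.03 and 1.00 in these comparisons (log2; edgeR adjusted p = 6.12e-10 and 2.13e-12), beside 0.94 and 0.83 for AMD1.

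For each of the 10 genes the 2 most similar profiles were sought among 9698 protein coding genes, by the root mean square difference of the log2 change from the DMSO control over 7 groups. AMD1 was closest to YTHDF1, a cytoplasmic m6A reader, at 0.0745 log2 units, and USPL1 at 0.0894, against a median of 0.687 over all candidates. For METTL16, TAF5L was at 0.112, against a median of 0.668. Genes picked as the nearest lie below the median by selection, so it does not show how unusual a match is. MAT2A was closest to ARL6IP5 at 0.108 and KIF3A at 0.125, and SAT1 to PTPN12 at 0.0942 and POM121C at 0.1103. AZIN1 was closest to SRPK1 at 0.0352 and OAZ2 to STAU1 at 0.0240. MAT2B was nearest to DRG1, AHCY to NDUFB10 and ODC1 to FIG4, at 0.0317 to 0.0471.

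The core letters of the m6A consensus, GGAC, were counted on the sense strand of each gene's transcript with the longest coding sequence. Of 13425 coding sequences 97.5% held GGAC, with a median of 4.72 per kb, and of 12437 3′ UTRs of 100 bases or more 83.5% held it, with a median of 2.37 per kb. AMD1 had 5 copies in its coding sequence, 4.98 per kb, and METTL16 had 8, 4.74 per kb, both near the median at percentiles 53.7 and 50.3. OAZ2, which did not pass the test for STM2457, had 8.77 per kb in its coding sequence at percentile 90.3. AZIN1, which rose with STM2457 at 6 h under TMM, had 1 copy in its coding sequence, 0.742 per kb, at percentile 2.97. MAT2B had none in its coding sequence, and OAZ1 and SAT1 had none in the 3′ UTR. In the 3′ UTR ODC1 was densest, with 7.94 per kb at percentile 93.4. AZIN1 had 4 copies there at percentile 38.8, METTL16 8 at 43.6, AMD1 6 at 58.5 and OAZ2 6 at 83.4. A match of letters does not show a methylated site.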

How the data were processed

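RNA-seq of 32 HEK293T libraries was analysed from the raw gene counts that the authors deposited. The submitters' processing notes name STAR 2.7.3a and the build GRCh38.p12, cutadapt 4.0 and 1.18, Trimmomatic and FastQC 0.11.8, and featureCounts, Subread 2.0.0 and SAMtools 1.9. Neither strand setting nor annotation release is given in the sources used here. IDs were matched to GENCODE 29, which held 58542 of the 60662, and 24 libraries also had counts of 92 ERCC spike-in RNAs.

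The 10 genes, the pathway lists and the rules were chosen with earlier results of these data known. Each experiment was fitted on its own across all genes kept by filterByExpr, with TMM normalization and the quasi-likelihood test of edgeR 4.0.16 in R 4.3.3. Only the difference of the 9 h and 6 h effects came from a joint fit. That fit held DMSO 6 h, STM2457 6 h, DMSO 9 h and STM2457 9 h, without the siRNA groups. P-values were adjusted over all genes by Benjamini-Hochberg and called under 0.05. Only the first comparison of each fit was checked on simulated counts. The siRNA and emetine differences were not simulated, and far fewer genes were changed in the simulation than were called in these data. Named genes were the 10, the targeted genes, up to 4 called genes per list and comparison by smallest p, and the 2 most similar genes of each member, of which some are not reported here. GGCX was named because it overlaps MAT2A. Alternatives were RLE factors, scaling to 86 ribosomal protein genes or to ERCC, no low-count filter, DESeq2 1.42.0, a replicate block and leaving out each library. Replicates of a group differed by 1.79 to 31.4 chi-square per degree of freedom, so none was counted as a duplicate.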

Additional observations from a re-analysis of the deposited data

Results flagged for a closer look

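In DMSO 9 h, MAT2B had 89.3 CPM in replicate 2 and 91.9 to 92.1 CPM in the other libraries, a gap of 0.921 of the range of the group. Chance flags about 1 in 20 groups in this way, and the gap is small beside the fall to 63.4 to 67.4 CPM in STM2457 9 h. Other groups also have 1 library apart, such as AZIN1 in STM2457 6 h with 261, 261 and 324 CPM. ODC1 in DMSO 6 h, with 252, 252 and 236 CPM, is another. The AZIN1 change without its high library is given above.

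The STM2457 effect differed by a test of the difference itself for several genes (edgeR, adjusted over all genes). With YTHDF2 siRNA minus without it was -0.37 for METTL16 and -0.47 for AMD1 on the log2 scale. With emetine minus without it was 0.15 for MAT2A, -0.56 for METTL16, -0.41 for AMD1, -0.16 for AZIN1 and -0.35 for SAT1. At 9 h minus 6 h it was -0.46 for MAT2B, -0.22 for AHCY, -0.55 for AMD1, -0.32 for OAZ1 and 0.38 for SAT1, where time and experiment cannot be told apart. The 6 h effect used there is that of the knockdown experiment, 0.14 for SAT1. In the emetine experiment the 6 h effect on SAT1 was 0.46, close to 0.50 at 9 h.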

How the results depend on the processing

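RLE factors, DESeq2, no low-count filter and the replicate block turned no called value of the 10 genes in the 12 comparisons, and 117, 114, 112 and 118 of 120 values kept their side of the threshold. Some values without a call changed sign. Of 940 values with 1 library left out, 874 kept their side, 44 lost a call, 21 gained one, and MAT2B with STM2457 at 6 h, at 0.00 and without a call with all libraries, was called as lower without replicate 3 of STM2457 6 h (-0.14; range -0.14 to 0.0682). Ribosomal protein scaling kept 67 of 120 and turned 28, and ERCC scaling kept 59 of 100 and turned 16. The cause was not tested.

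Counts of called genes among the 10 moved as follows. For STM2457 at 6 h in the knockdown experiment, 4 higher became 2 and 0 lower became 5 with ribosomal protein scaling, and 1 was higher with ERCC. With siRNA, 3 higher became 1 and 0, 0 lower became 3 with ribosomal protein scaling, and DESeq2 gave 5 higher. For siRNA in DMSO, ERCC gave 1 higher and 0 lower, against 4 and 2. For siRNA under STM2457, 2 higher became 1 with ERCC, and 4 lower became 1 and 0. For the siRNA difference, 2 lower became 1 and 0. At 9 h, 4 lower became 2. In the emetine experiment without emetine, 5 higher became 3 with ERCC, and 2 lower became 5 with ribosomal protein scaling and 1 with no filter. With emetine, 3 higher became 1 in both scalings and 0 lower became 2 with ribosomal protein scaling. For emetine in DMSO, 4 higher became 8 and 7 and 6 lower became 1 in both. Under STM2457, 0 higher became 8 and 7, and 7 lower became 1 and 0. For the emetine difference, 1 higher became 2 and 0, and 0 with no filter, and 4 lower became 2 in both. At 9 h minus 6 h, 1 higher became 7 and 4 lower became 0. Leaving out 1 library gave 0 to 1 lower for STM2457 at 6 h, 1 to 2 lower for siRNA in DMSO and for the siRNA difference, 0 to 2 higher for the emetine difference and 1 to 2 higher for 9 h minus 6 h.

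Values that turned with ribosomal protein scaling were, for STM2457 at 6 h in the knockdown experiment, MAT2B -0.28, AHCY -0.26, OAZ1 -0.0751 and OAZ2 -0.23; with siRNA AHCY -0.17; at 9 h OAZ1 0.0317 and OAZ2 0.15; and in the emetine experiment AHCY -0.15, OAZ1 -0.0239 and OAZ2 -0.13. With ERCC, AZIN1 -0.0780 and OAZ1 -0.19 turned in the knockdown experiment and SAT1 -0.00799 with siRNA. For emetine in DMSO, ribosomal protein and ERCC scaling gave 0.34 and 0.39 for MAT2B, 0.10 and 0.15 for AHCY, 0.36 and 0.41 for ODC1, 0.0519 and 0.10 for OAZ1, and 0.16 and 0.21 for OAZ2. Under STM2457 they gave 0.21 and 0.24 for METTL16, 0.10 and 0.13 for AHCY, 0.35 and 0.39 for AMD1, 0.46 and 0.49 for ODC1, 0.43 and 0.46 for AZIN1, 0.0437 and 0.0762 for OAZ1, 0.20 and 0.24 for OAZ2, and 0.40 and 0.44 for SAT1. At 9 h minus 6 h, ribosomal protein scaling gave 0.20 for AHCY, 0.21 for ODC1, 0.41 for AZIN1, 0.11 for OAZ1 and 0.38 for OAZ2.

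Over all genes, higher and lower calls under TMM, ribosomal protein and ERCC scaling were as follows. For STM2457 at 6 h they were 3814 and 3677, 1252 and 7363, and 398 and 5023. With siRNA they were 2577 and 2569, 707 and 4245, and 138 and 2381. For siRNA in DMSO ERCC gave 2653 and 2229, against 5521 and 4882 under TMM, and under STM2457 2599 and 1851, against 4972 and 5009. For the siRNA difference they were 296 and 1154, 9 and 127, and 0 and 0 (395 genes at an unadjusted p under 0.05 in edgeR), with 146 to 715 higher and 733 to 1481 lower when 1 library was left out. DESeq2 gave 444 and 1201 there. At 9 h ribosomal protein scaling gave 7513 and 2424, against 5104 and 5140. In the emetine experiment they were 4108 and 3459, 2200 and 6688, and 2092 and 4679, and with emetine 3409 and 2563, 1660 and 4364, and 1351 and 2581. For emetine in DMSO they were 5360 and 4477, 11455 and 408, and 11558 and 227, and under STM2457 4805 and 4654, 11559 and 365, and 11548 and 219. For the emetine difference they were 1062 and 1748, 1343 and 936, and 227 and 478. At 9 h minus 6 h TMM gave 2878 and 2809, ribosomal protein scaling 9574 and 69, RLE 2334 and 3605, and DESeq2 2148 and 3588.

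Libraries with the same replicate number did not vary together in a way that pairs them: 14 of 36, 1 of 8 and 10 of 36 correlated best with their own number in the knockdown, 9 h and emetine experiments. With the replicate block, STM2457 with siRNA raised 5 of the 10 genes instead of 3, by the calls of AZIN1 (0.18) and OAZ1 (0.16), and no other call among the 10 changed. SAT1 rests on the fewest counts of the 10 genes.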
